A study of Mus musculus with 6 samples.

Results

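The 10 genes described here encode parts of epithelial cells: the simple keratins Krt7, Krt8, Krt18 and Krt19, the claudins Cldn3, Cldn4, Cldn6 and Cldn7, and the tight junction proteins Ocln (occludin) and Tjp1 (ZO-1). They are 10 of the 52636 genes in the count table and were chosen by symbol, as a group selected on values of the same comparison of Tnfaip2-/- with WT samples that is described here. Their differences between genotypes are therefore given as a description, with no test. The study compared embryoid bodies (EBs), aggregates in which mouse embryonic stem cells (ESCs) begin to differentiate, from WT E14 cells and from a Tnfaip2-/- line. The Tnfaip2-/- line is a single clone of the same cells in which CRISPR editing placed a premature stop in exon 2. The EBs formed over 3 days in hanging drops, were plated, and were collected at day 3 of differentiation, with 3 samples per genotype. The replicates are cultures of these lines, and the spread between them is not that between clones, so that the effect of the edited gene and any other property of the clone cannot be told apart, and every p-value measures only the spread between these samples. The total count per sample ranged from 21765931 to 23804489, and 3 counts in a sample corresponded to between 0.128 and 0.137 CPM, the count per 1000000 counts of the sample after scaling.

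The edited gene, Tnfaip2, was barely detected: 7, 4 and 7 counts in the WT replicates, and 0, 2 and 2 counts in the Tnfaip2-/- replicates. Every WT value was above every Tnfaip2-/- value, but all 6 were near the floor of 3 counts, so no fold is given, and the counts hold no information on the edited exon.

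Keratins form intermediate filaments from pairs of a type I and a type II protein. Krt18 and Krt19 are type I, Krt7 and Krt8 are type II, and the pair of Krt8 and Krt18 is the earliest to appear in the mouse embryo, in trophectoderm and later in simple epithelia of endoderm and other origins. Claudins and occludin are membrane proteins with 4 passes through the membrane that seal the space between neighbouring epithelial cells, and ZO-1 ties them to the actin cytoskeleton. ESCs already express E-cadherin and several of these junction genes, so that their presence in EBs does not by itself mark a differentiated epithelium.

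All 10 genes passed the filter on low counts. Krt19 was about 20.2 times higher in the Tnfaip2-/- samples, Krt7, Cldn3 and Cldn4 were higher by smaller factors, Tjp1 and Cldn7 were slightly higher, Krt8 was slightly lower, and Krt18, Cldn6 and Ocln had overlapping groups. The groups did not overlap for 7 of the 10 genes, 6 with every Tnfaip2-/- sample higher and 1 (Krt8) with every Tnfaip2-/- sample lower. Among all 17849 genes that passed the filter the groups did not overlap for 69.4%, and since the comparison chose the genes, nothing is read from that. The median log2 fold change (Tnfaip2-/- over WT) was 0.32 for the 10 genes and 0.00 for all tested genes, and 3 of the 10 (Krt7, Krt19 and Cldn3) differed at least 2-fold. Of all tested genes 12% were called and differed at least 2-fold, and nothing is read from that either. RNA was taken from whole EBs, in which fewer cells of a type and less RNA per cell cannot be told apart.

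**Figure D1:**
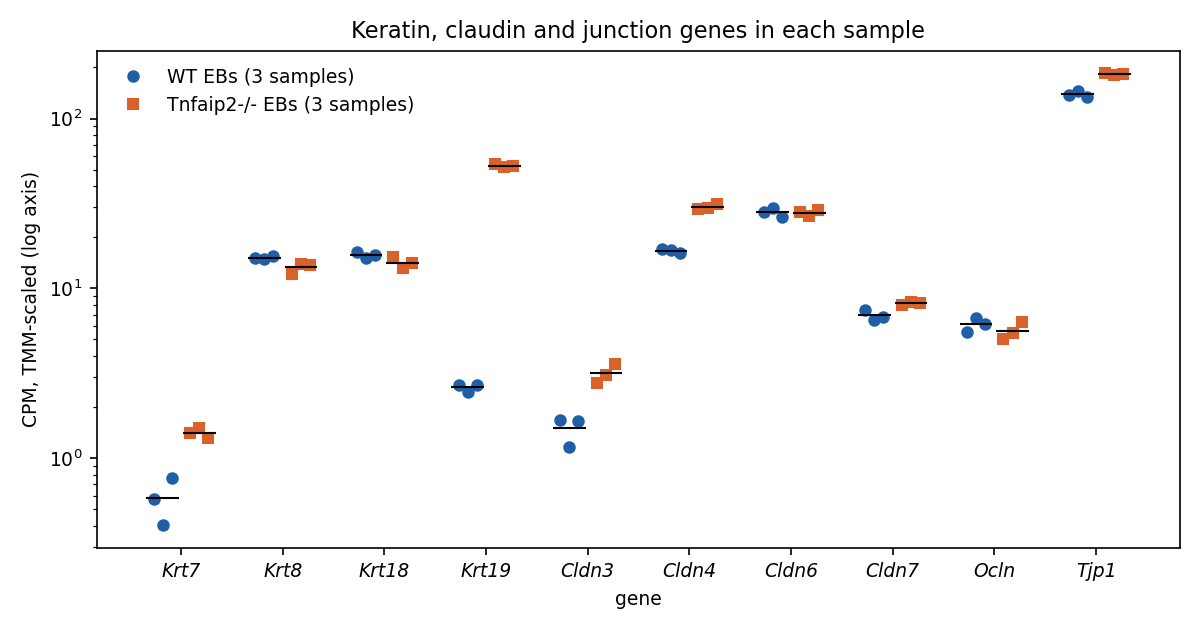
Level of each of the 10 genes in CPM (log axis) in the 3 WT and 3 Tnfaip2-/- samples, each point a sample and each bar a group mean. Krt19 lies between 2.46 and 2.69 CPM in WT and between 51.6 and 53.9 CPM in Tnfaip2-/- samples, while the points of Krt18, Cldn6 and Ocln overlap between genotypes.

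Krt8 and Krt18 are described first, as the type II and type I partners of the first embryonic keratin filament. Krt8 (chr15:101996698-102004482, minus strand, 9 exon blocks, build GRCm38) had 15.1, 14.9 and 15.5 CPM in the WT replicates and 12.2, 13.9 and 13.8 CPM in the Tnfaip2-/- replicates. All 3 Tnfaip2-/- samples lay below all 3 WT samples, by a small margin. Its mean went from 15.1 ± 0.292 CPM (SD, n = 3) to 13.3 ± 0.952 CPM (SD, n = 3), and the log2 fold change was -0.19 with a standard error (SE) of 0.0706. Krt18 (chr15:102028180-102032027, plus strand, 7 exon blocks) had 16.3, 15.0 and 15.8 CPM in WT and 15.3, 13.1 and 14 CPM in Tnfaip2-/- samples. The first Tnfaip2-/- replicate fell inside the WT range and the other two below it, so that the groups overlap. The log2 fold change of Krt18 was -0.15 (SE 0.07). The genes stand head to head on chromosome 15, with 23698 bases between them. Of the 51-base windows in the exons of Krt8, as long as a read, 29.5% also occur in other genes, most of them in the pseudogene Krt8-ps. Reads that fit more than a single place were not counted, so that such reads are missing from the values of Krt8 in both genotypes. For Krt7, Krt18 and Krt19 the shared percentages were 0.874, 0.577 and 0.

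Because Krt8 and Krt18 are neighbours that encode filament partners and had similar log2 fold changes, their promoters are shown, from 250 bases before to 50 bases after the start of a RefSeq transcript, 5′ to 3′ on the strand of the gene. That start is not always the end of the gene in the annotation used for the positions above. Both are RefSeq sequences of build GRCm38.p6, Krt8 at chr15:102004293-102004592 on the minus strand and Krt18 at chr15:102027966-102028265 on the plus strand. Capitals mark any match to 6 short motifs, read on both strands: AACCNGTT (bound by Grainyhead-like factors), CAGGTG (an E-box bound by Snail and Zeb repressors), TGANTCA (AP-1), GCCNNNGGC (AP-2), GGGCGG (bound by Sp and Klf factors) and TATAAA (a core promoter element near which transcription starts). Overlapping matches run together.
Krt8: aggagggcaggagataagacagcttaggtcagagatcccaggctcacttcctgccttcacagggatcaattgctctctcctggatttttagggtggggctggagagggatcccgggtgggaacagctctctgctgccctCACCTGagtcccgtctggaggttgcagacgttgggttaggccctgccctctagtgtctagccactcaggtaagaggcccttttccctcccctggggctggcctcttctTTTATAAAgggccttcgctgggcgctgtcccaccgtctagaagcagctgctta
Krt18: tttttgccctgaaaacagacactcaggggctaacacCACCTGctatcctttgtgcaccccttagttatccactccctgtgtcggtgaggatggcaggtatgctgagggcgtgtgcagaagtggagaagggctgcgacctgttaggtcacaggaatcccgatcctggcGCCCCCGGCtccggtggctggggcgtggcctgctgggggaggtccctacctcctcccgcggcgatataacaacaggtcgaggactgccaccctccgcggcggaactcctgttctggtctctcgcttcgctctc
The motif CAGGTG is in both windows, while only the Krt8 window has TATAAA and only the Krt18 window has GCCNNNGGC. A match describes letters only and says nothing about binding.

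Krt19, a type I keratin that lacks the tail domain of other keratins and is found in trophectoderm and simple epithelia, had the largest difference among the 10 genes. Krt19 (chr11:100140810-100148665, minus strand, 8 exon blocks) had 61, 55 and 63 counts in WT and 1225, 1131 and 1171 counts in Tnfaip2-/- samples, which is 2.69, 2.46 and 2.68 CPM against 53.9, 51.6 and 52.8 CPM. Both groups are tight, and the gap between them is many times the spread within either. The mean went from 2.61 ± 0.133 CPM (SD, n = 3) to 52.8 ± 1.14 CPM (SD, n = 3), and the log2 fold change was 4.33 (SE 0.0752). Krt19 lies in the type I keratin cluster on chromosome 11, with 14 other genes within 100 kb. Of these only the pseudogene Gm11598, named after its values were seen, passed the filter on low counts, with a log2 fold change of -0.41. Below the filter, Krt9, Krt14 and Krt15, also named after their values were seen, had at most 7 counts in any sample. Each was higher in every Tnfaip2-/- sample, and the remaining neighbours had overlapping groups or no count.

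Krt7, a type II keratin of simple and ductal epithelia, had few counts, at most 33 in any sample. Krt7 (chr15:101411043-101430313, plus strand, 11 exon blocks) had 13, 9 and 18 counts in WT and 32, 33 and 29 counts in Tnfaip2-/- samples. Even the lowest Tnfaip2-/- count was above the highest WT count. In CPM these are 0.574, 0.402 and 0.766 against 1.41, 1.51 and 1.31, and the mean went from 0.581 ± 0.182 (SD, n = 3) to 1.41 ± 0.0996 (SD, n = 3). The log2 fold change was 1.26 (SE 0.261). It ranged from 1.06 to 1.51 when each replicate was left out in turn, the widest range among the 10 genes.

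Levels of different keratins can be compared per kilobase of exon, scaled by the total count of the sample (RPKM). On that scale the type I genes Krt18 and Krt19 summed to 12.6, 11.7 and 12.3 in WT and to 40.1, 37.2 and 38.6 in Tnfaip2-/- samples. The type II genes Krt7 and Krt8 summed to 7.68, 7.62 and 7.90 in WT and to 6.49, 7.35 and 7.30 in Tnfaip2-/- samples. Summed type I RPKM was thus higher in every Tnfaip2-/- sample than in any WT sample, and summed type II RPKM lower. The ratio of type I to type II RPKM was 1.65, 1.54 and 1.55 in WT and 6.18, 5.07 and 5.28 in Tnfaip2-/- samples, with means of 1.58 ± 0.0578 (SD, n = 3) and 5.51 ± 0.589 (SD, n = 3). The ratio rests on the length of each gene. With counts per number of 51-base windows not found in other genes, an alternative chosen after seeing the data, the mean ratios were 1.13 and 3.94. Over all 26 type II keratins the groups overlap, with 8.02, 7.92 and 8.33 RPKM in WT and 7.31, 7.96 and 8.05 RPKM in Tnfaip2-/- samples. Over all 54 keratins in the table, 28 of type I and 26 of type II, the mean RPKM ratios were 1.87 ± 0.0562 and 5.76 ± 0.428 (SD, n = 3 each). These are levels of RNA, and protein was not measured.

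**Figure D2:**
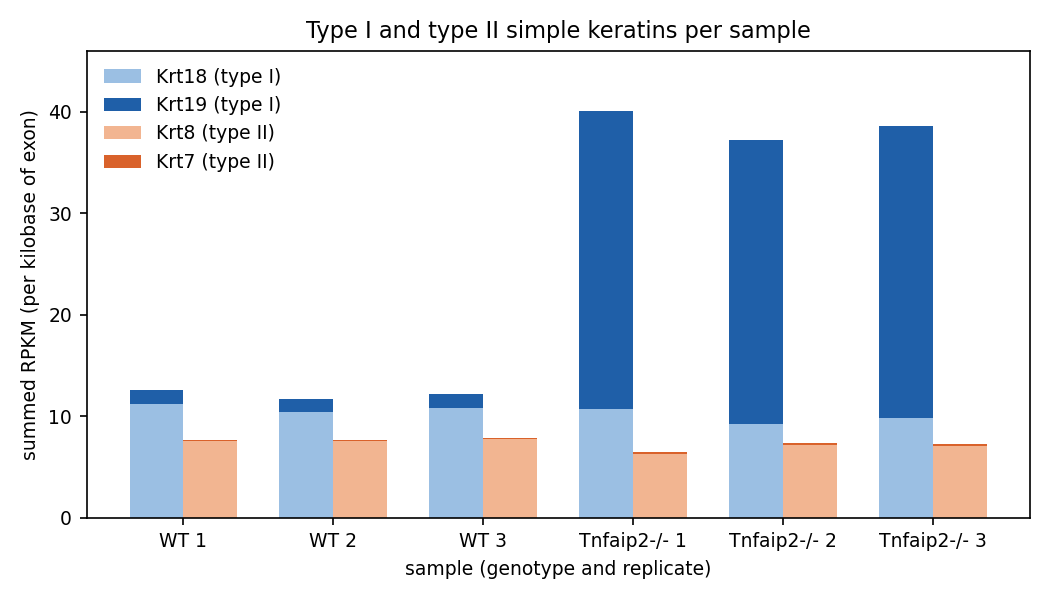
Summed RPKM in each of the 6 samples, as stacked bars of the type I genes Krt18 and Krt19 beside stacked bars of the type II genes Krt8 and Krt7. The type I bar reaches between 11.7 and 12.6 RPKM in WT and between 37.2 and 40.1 RPKM in Tnfaip2-/- samples, where most of it is Krt19.

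Krt19 was the main type I keratin RNA in Tnfaip2-/- samples but not in WT. Krt18 itself had a mean of 10.8 RPKM in WT and 9.93 RPKM in Tnfaip2-/- samples. Of the summed RPKM of all type I keratins, Krt19 made up 9.21%, 8.99% and 9.35% in WT and 64.3%, 63.7% and 64.9% in Tnfaip2-/- samples. Krt18 made up 72.2%, 70.9% and 71.1% in WT and 23.5%, 20.9% and 22.3% in Tnfaip2-/- samples. The leading type I keratin RNA was thus Krt18 in all WT samples and Krt19 in all Tnfaip2-/- samples. Among type II keratins Krt8 led in every sample, with a mean of 94.6% ± 1.03 of the summed RPKM in WT and 88.0% ± 1.79 in Tnfaip2-/- samples (SD, n = 3 each). The ratio of Krt18 to Krt8 RPKM was 1.47, 1.37 and 1.39 in WT and 1.71, 1.29 and 1.38 in Tnfaip2-/- samples, so that the groups overlap for this pair.

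The other 50 keratin genes were mostly silent: 12 had no count in any sample, and 42 were below the filter. Of the 8 tested, edgeR called 7 higher and 0 lower at an adjusted p under 0.05. Over all genes edgeR called 67.7% of the 17849 tested, 34% higher and 33.7% lower. The median log2 fold change of the 8 was 1.53, against 0.00 over all tested genes, all 8 were above 0 (the lowest, Krt10, chosen after its values were seen, at 0.12), and DESeq2 called 6 higher and also 0 lower. With a filter of 1 CPM in 3 samples the median was 0.767, over fewer genes. A gene this close to the filter can pass it through the higher group alone, so the counts and the median of this list favour genes that differ. Most of the 8 are of this kind: Krt12, Krt20, Krt23, Krt79 and Krt222 had at most 11 counts in any WT sample. They were chosen after their values were seen, and nothing is read from the counts or the median. Krt42, a type I keratin, had 19, 32 and 18 counts in WT and 35, 59 and 40 in Tnfaip2-/- samples, a log2 fold change of 0.99 (edgeR adjusted p = 2.29e-04). Every Tnfaip2-/- sample was above every WT sample. Krt17, a keratin of basal and appendage cells, had 18, 26 and 24 counts against 22, 36 and 38. Its groups overlap, and the edgeR adjusted p of 0.0461 for its log2 fold change of 0.53 passed the threshold in only 7 of 13 alternative settings. DESeq2 and a fit with no filter were among the 6 settings without the call. The others left out WT replicate 1 (log2 fold change 0.39) or 3 (0.54), or Tnfaip2-/- replicate 2 (0.43) or 3 (0.38). Krt23, Krt12 and Krt20, type I keratins chosen here after their values were seen, had at most 4 counts in any WT sample. In Tnfaip2-/- samples Krt23 had 35, 26 and 23 counts, Krt12 14, 15 and 14, and Krt20 13, 13 and 11.

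Among the claudins, Cldn3 and Cldn4 are receptors for a bacterial enterotoxin and are widely expressed in simple epithelia, and they stand head to head on chromosome 5 with 39280 bases between them. Cldn4 (chr5:134945119-134946934, minus strand, 1 exon block) had 17.0, 16.7 and 16.1 CPM in WT and 29.3, 29.9 and 31.5 CPM in Tnfaip2-/- samples. All Tnfaip2-/- samples lay well above all WT samples. Its mean went from 16.6 ± 0.436 to 30.2 ± 1.14 CPM (SD, n = 3 each), and the log2 fold change was 0.86 (SE 0.0572). Cldn3 (chr5:134986214-134987472, plus strand, 1 exon block) had 38, 26 and 39 counts in WT and 63, 68 and 79 counts in Tnfaip2-/- samples. The groups do not overlap here either, at counts that leave a wider spread. The mean of Cldn3 went from 1.5 ± 0.293 to 3.15 ± 0.396 CPM (SD, n = 3 each), and the log2 fold change was 1.06 (SE 0.175). Antisense genes overlap 3.18% of the exon bases of Cldn3, 5.16% of those of Krt8 and 1.09% of those of Krt7, and the library kit does not mark the strand.

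The promoters of this pair of claudin genes are shown because both genes were higher in every Tnfaip2-/- sample, with the same window, motifs and capitals as for the keratins. They are RefSeq sequences of build GRCm38.p6, Cldn3 at chr5:134985964-134986263 on the plus strand and Cldn4 at chr5:134946885-134947184 on the minus strand.
Cldn3: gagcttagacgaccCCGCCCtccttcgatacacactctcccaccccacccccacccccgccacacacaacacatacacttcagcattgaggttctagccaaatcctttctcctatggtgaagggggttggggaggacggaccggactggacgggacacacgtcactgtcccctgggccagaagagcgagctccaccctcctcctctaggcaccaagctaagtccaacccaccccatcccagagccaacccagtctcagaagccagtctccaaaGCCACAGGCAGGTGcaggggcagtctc
Cldn4: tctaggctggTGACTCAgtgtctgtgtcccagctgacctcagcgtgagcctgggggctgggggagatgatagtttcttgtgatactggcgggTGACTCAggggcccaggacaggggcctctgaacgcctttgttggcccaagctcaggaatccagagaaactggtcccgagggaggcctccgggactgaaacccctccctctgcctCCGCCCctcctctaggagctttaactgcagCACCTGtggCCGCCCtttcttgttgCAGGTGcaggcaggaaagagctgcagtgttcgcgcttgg
Both windows hold CAGGTG and GGGCGG, and in addition TGANTCA occurs in the Cldn4 window, with 2 matches, and GCCNNNGGC, which overlaps an E-box match, in the Cldn3 window. Of the 10 genes, 9 were found in the promoter table with 11 promoters in all, and Krt19 was not. CAGGTG occurred in 9 of the 11 promoters (in at least 1 promoter of each gene found but Tjp1), against 20.2% of all 32851 promoters of the same length in the table. The windows of the Ocln promoters overlap, so a single CAGGTG site there is counted in both of them. The other motifs occurred in 8 (GGGCGG), 5 (GCCNNNGGC), 1 (TGANTCA, of Cldn4), 1 (TATAAA, of Krt8) and 0 (AACCNGTT) of the 11 promoters, against 35.7%, 16.6%, 7.81%, 13.6% and 2.09% of all promoters. The windows are richer in some letters than others and the genes were chosen, so these values stand side by side with no test.

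Cldn6, a claudin of early embryonic epithelia and ESCs, hardly differed. Cldn6 (chr17:23679249-23682446, plus strand, 3 exon blocks) had 28.2, 29.6 and 26.3 CPM in WT and 28.2, 26.5 and 28.9 CPM in Tnfaip2-/- samples. The groups overlap almost entirely, with a log2 fold change of -0.01 (SE 0.0541). Cldn7, a claudin found along the sides of epithelial cells as well as at tight junctions, had 7.5, 6.52 and 6.77 CPM in WT and 8.01, 8.36 and 8.16 CPM in Tnfaip2-/- samples. Its Tnfaip2-/- samples were all above its WT samples by a narrow margin, and the log2 fold change was 0.24 (SE 0.093). Cldn7 lies at chr11:69964779-69967885 on the plus strand, with 5 exon blocks.

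Per length, the 4 claudins summed to 30.5, 30.5 and 28.6 RPKM in WT and to 39.2, 38.8 and 41.5 RPKM in Tnfaip2-/- samples. Cldn6 made up 53.0%, 56.1% and 52.8% of that sum in WT and 42.2%, 39.9% and 40.8% in Tnfaip2-/- samples, and Cldn4 30.3%, 30.0% and 30.7% against 41.5%, 42.6% and 42.1%. Cldn6 thus led the 4 claudins in every WT sample, while in Tnfaip2-/- samples Cldn4 and Cldn6 had similar shares.

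The other 21 claudin genes summed to 12.2, 14 and 14.4 RPKM in WT and to 8.91, 9.08 and 8.34 RPKM in Tnfaip2-/- samples. Most of that came from Cldn12. Of these genes 6 had no count and 5 were tested. Of the 5, edgeR called 2 higher and 3 lower at an adjusted p under 0.05, with a median log2 fold change of -0.75. Over all tested genes 34% were called higher and 33.7% lower. A gene close to the filter can pass it through the higher group alone, so these counts favour genes that differ. Both genes called higher had at most 10 counts in any WT sample, and with a filter of 1 CPM in 3 samples none was called higher. A median over so few genes is not stable: it was -1.18 with a filter of 1 CPM in 3 samples, -0.149 without Tnfaip2-/- replicate 1, 0.344, 0.357 and 0.415 without WT replicate 1, 2 or 3, and 0.023 without Tnfaip2-/- replicate 3. Cldn12, a claudin without the usual binding motif for ZO-1, had 952, 1060 and 1190 counts in WT and 659, 618 and 576 in Tnfaip2-/- samples, a log2 fold change of -0.75 (edgeR adjusted p = 2.39e-15). Cldn5, the claudin of endothelial junctions, had 43, 47 and 47 counts against 15, 14 and 14, a log2 fold change of -1.63 (edgeR adjusted p = 2.45e-08). Each was lower in all 3 Tnfaip2-/- samples. The remaining called genes, chosen after their values were seen, were Cldn9 (log2 fold change -0.76), Cldn11 (2.07) and Cldn19 (1.05), and none of these reached 1 CPM in its group mean. Without Tnfaip2-/- replicate 3, edgeR called 1 of these genes higher in place of 2.

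Ocln and Tjp1 complete the group. Ocln, a MARVEL protein of the tight junction strands, had 5.52, 6.70 and 6.17 CPM in WT and 5.06, 5.43 and 6.36 CPM in Tnfaip2-/- samples. The groups overlap, and the log2 fold change was -0.13 (SE 0.109). Tjp1, the scaffold that binds claudins, occludin and actin, had 137.4, 144.4 and 134.3 CPM in WT and 184.6, 179.5 and 184.2 CPM in Tnfaip2-/- samples. Every Tnfaip2-/- sample was above every WT sample. The mean of Tjp1 went from 138.7 ± 5.18 to 182.8 ± 2.84 CPM (SD, n = 3 each), and the log2 fold change was 0.40 (SE 0.0296). Ocln lies at chr13:100496507-100552718 and Tjp1 at chr7:65296165-65527781, both on the minus strand, with 10 and 31 exon blocks.

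By mean RPKM the order in WT samples was Tjp1 (17.6), Cldn6 (16.1), Krt18 (10.8), Cldn4 (9.05), Krt8 (7.65), Cldn7 (3.52), Ocln (1.44), Krt19 (1.39), Cldn3 (1.18) and Krt7 (0.0814). The sample ranges overlap between Tjp1 and Cldn6, between Ocln and Krt19 and between Ocln and Cldn3, so these genes cannot be ordered. In Tnfaip2-/- samples the order by mean RPKM was Krt19 (28.7), Tjp1 (23.6), Cldn4 (16.8), Cldn6 (16.3), Krt18 (9.93), Krt8 (6.84), Cldn7 (4.23), Cldn3 (2.52), Ocln (1.34) and Krt7 (0.201), where the ranges of Cldn4 and Cldn6 overlap. Krt19 thus stood among the 4 lowest of the 10 genes in WT, and at place 1 in Tnfaip2-/- samples, where its range overlapped no other.

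The remaining tight junction genes, 24 adhesion, MARVEL and scaffold genes, were all tested. In edgeR 7 (29.2%) were higher and 15 (62.5%) lower at an adjusted p under 0.05, with a median log2 fold change of -0.18. Here and for the lists that follow, the shares over all tested genes are 34% higher and 33.7% lower, with a median of 0.00. Jam2, a junctional adhesion molecule of endothelium and stem cells, had 30.7, 32.7 and 33.7 CPM in WT and 4.71, 5.48 and 5.32 CPM in Tnfaip2-/- samples. It was lower in all 3 Tnfaip2-/- samples, with a log2 fold change of -2.65 (edgeR adjusted p = 4.33e-32). Amot, an angiomotin that links junctions to the Hippo pathway, was next, with 37.5, 38.4 and 37.4 CPM against 19.5, 17.7 and 17.4 CPM and a log2 fold change of -1.05 (edgeR adjusted p = 5.42e-22). Arhgef2, a protein held at junctions by cingulin, had a log2 fold change of -0.71, and Ybx3, a Y-box protein that binds ZO-1 and the highest of the list in mean CPM, went from a mean of 457.2 to 362.3 CPM (log2 fold change -0.34).

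Of 19 apical-basal polarity genes 18 were tested, and edgeR called 7 (38.9%) higher and 4 (22.2%) lower at an adjusted p under 0.05, with a median log2 fold change of 0.04. That median was 0.01 and 0.012 without WT replicate 1 or 2, and 0.011 and -0.002 without Tnfaip2-/- replicate 2 or 3. The share called, 61.1%, was near the 67.7% of all tested genes. Crb2, an apical Crumbs protein, had 4.37, 4.11 and 3.96 CPM in WT and 1.98, 1.96 and 1.98 CPM in Tnfaip2-/- samples (log2 fold change -1.07, edgeR adjusted p = 1.43e-08). Llgl2, a basolateral Lgl protein, moved the other way, with 82.7, 79.9 and 77.2 CPM against 132.7, 138.4 and 138.4 CPM (log2 fold change 0.77, edgeR adjusted p = 4.51e-25). Both had groups that do not overlap. Patj, a Crumbs complex scaffold at tight junctions, had a log2 fold change of 0.54. Llgl1, the called gene of the list with the highest CPM averaged over all 6 samples, though not in Tnfaip2-/- samples alone, went from a mean of 159.5 to 149.8 CPM, a log2 fold change of -0.09 whose call was lost when library totals replaced the TMM scaling.

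All 14 adherens junction genes were tested, and edgeR called 6 (42.9%) higher and 5 (35.7%) lower at an adjusted p under 0.05, with a median log2 fold change of 0.07, which was 0.021 without WT replicate 3 and 0.04 without Tnfaip2-/- replicate 3. Cdh1 (E-cadherin), chosen after its values were seen as the cadherin of these junctions, had a mean of 313.3 CPM in WT and 321.9 CPM in Tnfaip2-/- samples, with a log2 fold change of 0.04 (edgeR adjusted p = 0.164). Cdh3 (P-cadherin), a classical cadherin of placenta and basal epithelia, had 42.1, 43.5 and 42.5 CPM in WT and 87.8, 91.0 and 89.5 CPM in Tnfaip2-/- samples. All 3 Tnfaip2-/- samples of Cdh3 were higher, with a log2 fold change of 1.07 (edgeR adjusted p = 3.29e-28). Nectin4, an adhesion molecule that binds other nectins, had 26, 26 and 30 counts in WT and 95, 99 and 102 counts in Tnfaip2-/- samples (log2 fold change 1.88, edgeR adjusted p = 3.34e-14). Ctnnb1 (beta-catenin) went from a mean of 714.8 to 823.7 CPM (log2 fold change 0.20). Jup (plakoglobin), shared between adherens junctions and desmosomes, was lower, with a log2 fold change of -0.70. Vcl, Afdn, Nectin3 and Pdlim5, chosen after their values were seen, were the other genes called lower, with log2 fold changes of -0.46, -0.48, -0.14 and -0.26.

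Desmosomes and hemidesmosomes are the junctions that anchor keratin filaments, to the next cell and to the basement membrane. Of 20 genes in that list, which includes the plakin linkers, 14 were tested. In edgeR 13 were higher and 1 lower at an adjusted p under 0.05, with a median log2 fold change of 1.23, against 0.00 over all tested genes, and 9 were called and at least 2-fold higher. Over all tested genes 34% were called higher, 33.7% lower, and 7.46% higher by at least 2-fold. Perp, a tetraspan desmosome protein, had 2.60, 3.75 and 3.58 CPM in WT and 34.7, 34.3 and 35.1 CPM in Tnfaip2-/- samples (log2 fold change 3.39, edgeR adjusted p = 1.19e-34). Dsp (desmoplakin), which ties keratins to the desmosome, had 11.1, 13.7 and 12.0 CPM in WT and 87.8, 89.4 and 85.9 CPM in Tnfaip2-/- samples (log2 fold change 2.84, edgeR adjusted p = 1.16e-39). For both genes the groups lie far apart compared with their spread. Ppl (periplakin), a plakin of the cell cortex, had 34, 43 and 40 counts in WT and 183, 177 and 186 counts in Tnfaip2-/- samples (log2 fold change 2.26, edgeR adjusted p = 2.73e-20). Dst (dystonin), a plakin of hemidesmosomes and other sites, had the highest CPM of the list averaged over all 6 samples, though not in WT, and went from a mean of 92.4 to 177.0 CPM (log2 fold change 0.94). The gene called lower was Itga6, an integrin subunit of hemidesmosomes and of ESCs, chosen after its values were seen, with a log2 fold change of -0.56. The desmosomal cadherin genes Dsg1a, Dsg3, Dsg4 and Dsc1 had no count in any sample, and Dsc3 and Pkp1 were below the filter. These genes too were chosen after their values were seen. Jup, whose protein meets Dsp at the desmosome and which is listed with the adherens junctions, was lower (log2 fold change -0.70). Of the keratins among the 10 genes, Krt19 and Krt7 were higher, Krt8 slightly lower and Krt18 overlapping. Since these keratins were chosen, nothing is read from their directions.

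Among 14 epithelial regulators of transcription and splicing, 11 were tested, and edgeR called 8 (72.7%) higher and 2 (18.2%) lower at an adjusted p under 0.05, with a median log2 fold change of 0.83. Tfap2c (AP-2 gamma), a factor of trophoblast, germ cells and surface ectoderm, had 22.6, 20.5 and 21.9 CPM in WT and 172.6, 169.3 and 171.4 CPM in Tnfaip2-/- samples (log2 fold change 2.98, edgeR adjusted p = 2.47e-45). Grhl3, a Grainyhead-like factor of surface epithelia, had 11, 13.3 and 12.3 CPM in WT and 65.5, 68.2 and 69.2 CPM in Tnfaip2-/- samples (log2 fold change 2.47, edgeR adjusted p = 1.95e-36). Both were higher in all 3 Tnfaip2-/- samples. Elf3, an epithelial ETS factor, went from a mean of 19.1 to 58.6 CPM (log2 fold change 1.61). The genes called lower, chosen after their values were seen, were relatives of those called higher. Grhl2, the Grainyhead-like factor of simple epithelia, had 18.5, 20.3 and 19.3 CPM in WT and 9.55, 9.54 and 10.8 CPM in Tnfaip2-/- samples (log2 fold change -0.96, edgeR adjusted p = 3.43e-16). Tfap2a (AP-2 alpha) had 48, 80 and 61 counts against 29, 16 and 25 (log2 fold change -1.39, edgeR adjusted p = 1.51e-07). Paralogues of the Grainyhead-like and of the AP-2 family thus moved in opposite directions in these samples.

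**Figure D3:**
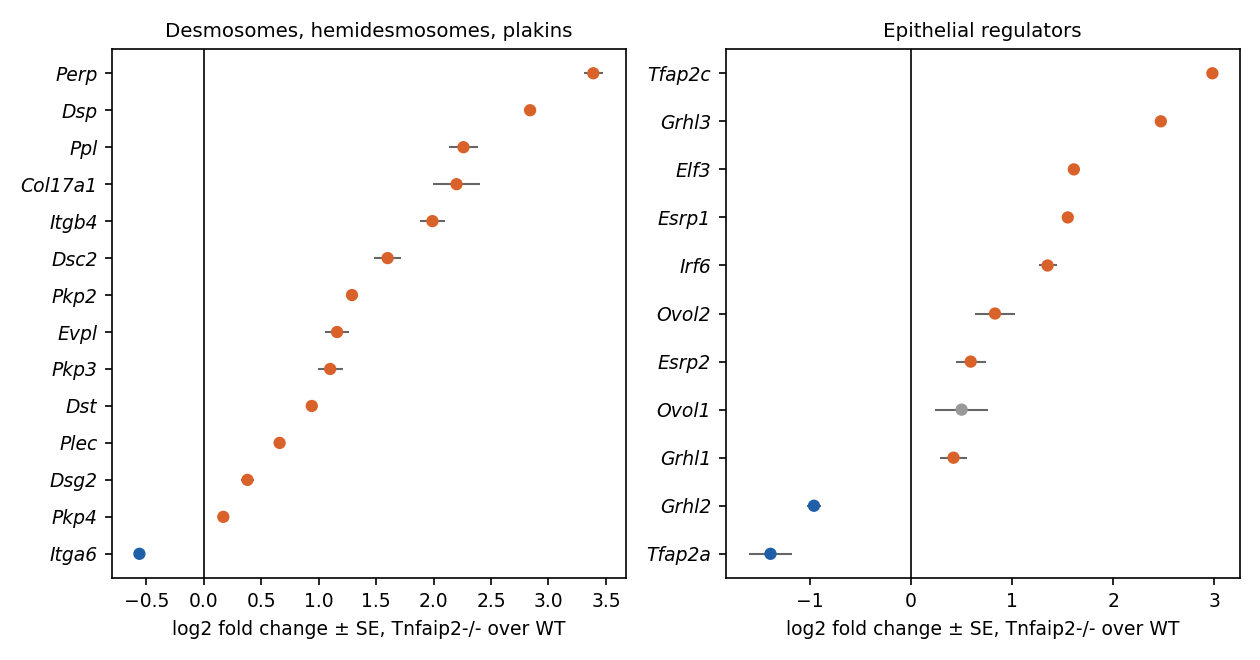
Log2 fold change (Tnfaip2-/- over WT, bars ± SE) of the 14 tested desmosome, hemidesmosome and plakin genes and of the 11 tested epithelial regulators, orange for higher, blue for lower (edgeR adjusted p under 0.05) and grey for not called. Perp is highest in the first panel at 3.39 and Tfap2c in the other at 2.98, while Itga6, Grhl2 and Tfap2a lie below 0.

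Of 14 epithelial surface and trafficking genes 12 were tested, and edgeR called 4 (33.3%) higher and 4 (33.3%) lower at an adjusted p under 0.05, near the shares over all tested genes, with a median log2 fold change of -0.07 (-0.04 without Tnfaip2-/- replicate 3). St14 (matriptase), a membrane serine protease of epithelia, had 17.8, 18.7 and 18.6 CPM in WT and 56.2, 54.4 and 53.9 CPM in Tnfaip2-/- samples (log2 fold change 1.58, edgeR adjusted p = 1.85e-30). Rab25, a small GTPase of apical recycling, had 2.60, 2.68 and 2.47 CPM against 1.19, 1.00 and 1.26 CPM (log2 fold change -1.16, edgeR adjusted p = 5.20e-07). Each had groups that do not overlap, in opposite directions. Cd24a, a surface glycoprotein, had a log2 fold change of -0.75. Ezr (ezrin), a linker of membrane and actin and the called gene with the highest mean CPM, went from a mean of 240.9 to 227.7 CPM, a log2 fold change of -0.08 whose call was lost when library totals replaced the TMM scaling. The other genes called, chosen after their values were seen, were Muc1 (0.95), Ap1m2 (0.52) and Spint2 (0.38) higher and Epcam (-0.47) lower, in log2 fold change.

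Repressors of epithelial genes bind E-boxes such as CAGGTG. Of 7 in the list 6 were tested, and edgeR called 1 (16.7%) higher and 3 (50%) lower at an adjusted p under 0.05, with a median log2 fold change of -0.36, and of -0.65 with a filter of 1 CPM in 3 samples. Zeb2 had 14, 13.3 and 13.6 CPM in WT and 5.85, 5.71 and 5.59 CPM in Tnfaip2-/- samples (log2 fold change -1.25, edgeR adjusted p = 1.41e-17). Twist1, a mesenchymal bHLH factor, had 3.40, 4.15 and 2.98 CPM against 1.23, 1.96 and 1.58 CPM (log2 fold change -1.14, edgeR adjusted p = 1.63e-07). Both were lower in all 3 Tnfaip2-/- samples, and Snai1, chosen after its values were seen, was also called lower (log2 fold change -0.66). Snai3, a Snail family member, was the gene called higher, with 17, 16 and 17 counts against 55, 46 and 37 (log2 fold change 1.49, edgeR adjusted p = 1.33e-07). Zeb1 and Snai2, also chosen after their values were seen, did not pass the test, with log2 fold changes of -0.06 and 0.43.

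For comparison with the keratins, 15 other intermediate filament genes were taken, of which 14 were tested. In edgeR 6 (42.9%) were higher and 7 (50%) lower at an adjusted p under 0.05, with a median log2 fold change of -0.10, which was -0.252 with a filter of 1 CPM in 3 samples and -0.157 without WT replicate 3. Synm (synemin), a partner of other filament proteins, had 2.74, 3.22 and 3.06 CPM in WT and 16.2, 16.6 and 16 CPM in Tnfaip2-/- samples (log2 fold change 2.43, edgeR adjusted p = 1.82e-26). Prph (peripherin), a neuronal filament protein, had 11.5, 11.4 and 12.0 CPM against 44.7, 48.9 and 48.4 CPM (log2 fold change 2.03, edgeR adjusted p = 4.31e-32). Their groups lie far apart, with the Tnfaip2-/- samples higher. Nefm, a neurofilament subunit, was lower (log2 fold change -1.84), and Lmnb1, a nuclear lamin and the called gene of the list with the highest mean CPM, went from a mean of 457.0 to 485.1 CPM (log2 fold change 0.09). Vim (vimentin), the filament of mesenchymal cells and of ESCs, chosen after its values were seen, had 201.8, 207.9 and 210.7 CPM in WT and 87.5, 81.1 and 87.3 CPM in Tnfaip2-/- samples (log2 fold change -1.28, edgeR adjusted p = 2.04e-34).

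**Figure D4:**
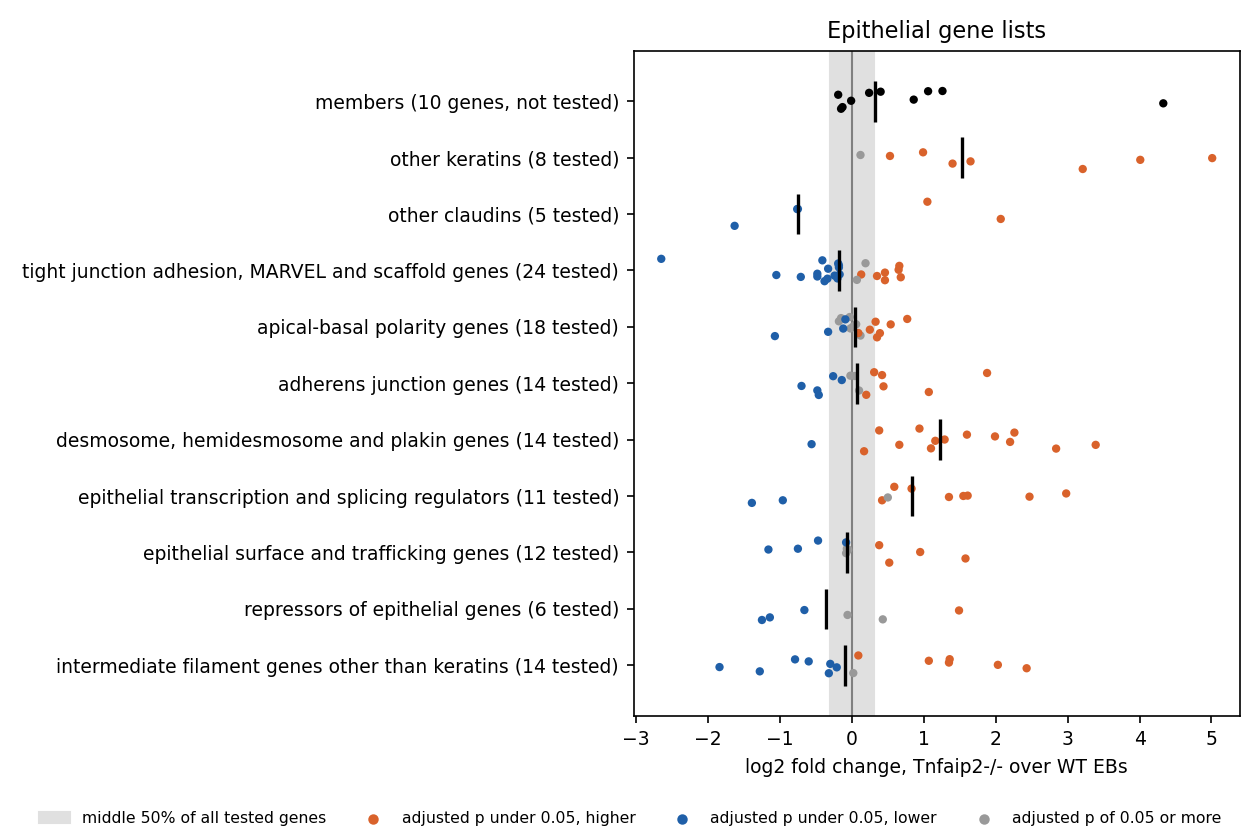
Log2 fold change (Tnfaip2-/- over WT) of each of the 10 genes (black, not tested) and of every tested gene in the 10 related lists (orange higher, blue lower, grey not called), with a bar at each median and a band over the middle 50% of all tested genes. The desmosome list has a median of 1.23 and the tight junction list of -0.18, against 0.00 over all tested genes.

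Markers of cell types that EBs can hold were read in the same samples, and their part in the keratin and junction values was not tested. The cells are labelled as ESCs grown into EBs, all 8 pluripotency markers passed the filter, and their summed level was 3493.8, 3444.3 and 3513.2 CPM in WT and 2949.3, 2955.0 and 2930.6 CPM in Tnfaip2-/- samples. In edgeR 3 of these were higher and 5 lower at an adjusted p under 0.05 (median log2 fold change -0.12), and the marker with the highest mean CPM, Dppa5a, had a log2 fold change of -0.69. The markers called higher, chosen after their values were seen, were Zfp42 (log2 fold change 0.90), Nanog (0.26) and Sox2 (0.23). Those called lower besides Dppa5a, chosen in the same way, were Pou5f1 (-0.86), Esrrb (-0.48), Tdgf1 (-0.17) and Utf1 (-0.06). Pou5f1 went from a mean of 759.7 to 419.0 CPM. Trophoblast, which carries Krt7, Krt8, Krt18 and Krt19 in the embryo, was read by 12 markers, of which 6 were tested, 4 higher and 2 lower (median log2 fold change 1.41, and 0.47 with a filter of 1 CPM in 3 samples). Their sum was 55.9, 54.9 and 52.4 CPM in WT and 198.8, 193.3 and 199.4 CPM in Tnfaip2-/- samples, in the latter mostly from Tfap2c, the marker with the highest CPM averaged over all 6 samples and also in the list of regulators. Tfap2c went from a mean of 21.7 to 171.1 CPM, while Eomes, the marker with the highest CPM in WT and chosen after its values were seen, went from 28.4 to 18.5 CPM (log2 fold change -0.62). Ascl2, Hand1 and Gata2, also chosen after their values were seen, were called higher, with log2 fold changes of 1.54, 1.75 and 1.27. Hand1 and Gata2 had at most 10 counts in any WT sample. A gene close to the filter can pass it through the higher group alone, so the counts of this and the other marker lists can favour genes that differ. With a filter of 1 CPM in 3 samples 2 trophoblast markers were called higher and 2 lower. Of the defining markers Tpbpa and Prl3d1 had no count, 4 of the 12 had at most 3 counts in every sample, and Cdx2, chosen after its values were seen, had 42, 37 and 28 counts in WT and 1, 2 and 0 in Tnfaip2-/- samples.

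Endoderm, another source of simple keratins in EBs, was read by 16 markers, all tested, of which edgeR called 5 higher and 8 lower at an adjusted p under 0.05 (median log2 fold change -0.07, and -0.031 without WT replicate 2). They summed to 398.7, 401.4 and 396.2 CPM in WT and 569.1, 559.9 and 563.4 CPM in Tnfaip2-/- samples. The higher sum came from matrix genes that are not restricted to endoderm: Sparc, with the highest mean CPM, went from a mean of 134.3 to 202.3 CPM (log2 fold change 0.59), Col4a1 from 89.1 to 158.9 CPM and Lama1 from 28.8 to 75.5 CPM. The other markers moved both ways. Among those that edgeR called lower were the secreted proteins Ttr, Apoa1 and Afp and the factor Foxa2, with means of 5.05 and 1.30 CPM for Ttr, 3.09 and 0.507 CPM for Apoa1, 2.48 and 1.11 CPM for Foxa2, and 0.902 and 0.0447 CPM for Afp in WT and Tnfaip2-/- samples. Sox7 (log2 fold change 0.64) and Sox17 (0.45) were called higher, while Gata4 (-0.04), Gata6 (0.14) and Hnf4a (0.25) were not called. All of these but Sparc were chosen after their values were seen. Surface ectoderm and basal epithelium were read by 8 markers, 5 of which are also in the keratin or regulator lists, and 3 were tested, with 1 higher and 2 lower. Their median log2 fold change of -1.38 was 1.11 under a filter of 1 CPM in 3 samples. Their sum was 3.57, 5.23 and 3.75 CPM in WT and 6.78, 7.62 and 8.30 CPM in Tnfaip2-/- samples. Most of it in the latter came from Dlx3 (log2 fold change 3.60), a homeobox factor of placenta and epidermis. Tfap2a (log2 fold change -1.39) and Wnt6 (-1.38) were called lower, and both were chosen after their values were seen. The keratins of this list, also chosen after their values were seen, were below the filter. Krt14 had 2, 1 and 2 counts in WT and 6, 3 and 7 in Tnfaip2-/- samples. Krt15 had 1, 0 and 0 against 4, 5 and 2, and Krt5, whose groups overlap, 0, 0 and 1 against 0, 1 and 4. For fibroblasts and mesenchyme 5 of 8 markers were tested, with 1 higher and 2 lower (median log2 fold change -0.16). They summed to 13.1, 13.8 and 12.8 CPM in WT and 11.5, 11.4 and 11.9 CPM in Tnfaip2-/- samples, and the call of the gene with the highest CPM averaged over all 6 samples, though not in WT, Pdgfrb (log2 fold change 0.36), was lost with DESeq2. The markers called lower, chosen after their values were seen, were Col1a2, with 38, 36 and 43 counts in WT and 9, 14 and 17 in Tnfaip2-/- samples, and Col3a1, with 12, 21 and 12 against 1, 1 and 0. Of the markers below the filter, Dcn had 8, 8 and 9 counts against 1, 0 and 0, and Postn 2, 2 and 4 against 0 in all 3 samples. For endothelium and blood 2 of 7 markers were tested, 1 higher and 1 lower (median log2 fold change -1.18), and that median was above 0 without WT replicate 1 (0.463) or 2 (0.225) or Tnfaip2-/- replicate 1 (0.521) or 2 (0.436). Their sum was 26.5, 25.9 and 26.1 CPM in WT and 30.7, 34.8 and 36.1 CPM in Tnfaip2-/- samples, most of it from Pecam1 (log2 fold change 0.45), which ESCs express as well, and Hbb-bt had no count. The marker called lower, chosen after its values were seen, was Kdr, with 34, 38 and 32 counts in WT and 5, 6 and 3 in Tnfaip2-/- samples.

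Within 100 kb of the 10 genes lie 97 other genes, of which 46 were tested and edgeR called 14 higher and 25 lower at an adjusted p under 0.05, against 34% higher and 33.7% lower of all tested genes. Their log2 fold changes ran from -1.49 to 1.65, so that no tested neighbour moved as far as Krt19. The highest, Krt79, chosen after its values were seen, lies near Krt8 and Krt18 and is in the list of other keratins. Around Cldn6, 12 neighbours were tested and edgeR called 10 of them lower, and Cldn9, 138 bases away, had a log2 fold change of -0.76 where Cldn6 itself had -0.01. All 6 tested neighbours of Ocln were higher, with log2 fold changes from 0.13 to 0.95, where Ocln had -0.13. Krt7 and Tjp1 had no tested neighbour.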

How the data were processed

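Polyadenylated RNA of 6 EB samples was sequenced as 51-base single-end reads from a TruSeq RNA v2 library, which does not mark the strand. The authors mapped the reads with TopHat2 2.1.0 to GRCm38 (Ensembl release 90), and the deposited values are counts of uniquely mapped reads per gene from featureCounts 1.5.0. In R 4.3.3, genes were filtered with filterByExpr (count of at least 10, total of at least 15), scaled by TMM and tested with the quasi-likelihood F test of edgeR 4.0.16, with Benjamini-Hochberg adjustment over all 17849 tested genes and a threshold of 0.05. The alternatives used DESeq2 1.42.0 and other filters, scalings and sample sets. The SE of a log2 fold change was derived from the test statistic. CPM uses TMM-scaled library sizes. RPKM uses total counts and merged exon length, and it depends on the length chosen. Reads shared with pseudogenes are lost from unique counts. Samples were not paired in the fit, as the labels give only a replicate number. For each gene the deviation of a sample from its genotype mean was taken in log2 CPM. Between same-numbered WT and Tnfaip2-/- samples these deviations had correlations of -0.0418, -0.0416 and -0.0457. The code for the fits was tested on simulated data.

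The 10 genes and the 16 related and marker lists were chosen with earlier results of these data known. Named genes are the 10 genes, and from each of the 10 family and pathway lists the 3 largest changes and the highest mean CPM among genes with an adjusted p under 0.05 and a mean of at least 1 CPM. From each of the 6 marker lists they are the most abundant gene and genes with no count, and beside these Tnfaip2 and neighbours within 100 kb changed at least 4-fold. Genes named outside this rule were chosen after their values were seen. A comparison of protein sequences was left out because no protein table was available.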

Additional observations from a re-analysis of the deposited data

How the results depend on the processing

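The log2 fold changes of the 10 genes stayed within 1 SD of the replicates in 130 of 130 alternative values. The largest shift was 0.028 (Krt19) with all samples and 0.244 (Krt7) when a replicate was left out. For Cldn6, at -0.01, the sign is not fixed: it ranged from -0.06 to 0.03. The genes named by the rule above, other than the 10, kept direction and call in 498 of 507 values. The 9 calls lost (Krt17 in 6, Llgl1, Ezr and Pdgfrb in 1 each) are given with those genes. Genes named outside that rule are not part of this count. List medians moved by more than the replicate spread in 48 of 221 values. The median of all tested genes was 0.003, and it ranged from -0.016 with no filter to 0.031 with library totals in place of TMM. With a replicate block in the model, 11841 genes passed (5937 higher, 5904 lower), with 14 in place of 15 tight junction genes, 4 in place of 5 pluripotency markers and 7 in place of 8 endoderm markers called lower. The other list counts were the same. The 10 genes kept their direction, and the genes named by the rule kept direction and call. The pluripotency marker that lost its call was named outside that rule.

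An edgeR test for changes beyond 1.5-fold asks more of each gene, and it called 2798 genes in place of 12084 (1615 in place of 6076 higher, 1183 in place of 6008 lower). In the lists, higher and lower, it called 2 and 3 tight junction, 1 and 1 polarity, 2 and 1 adherens junction, 1 and 2 surface, 1 and 2 pluripotency and 2 and 4 endoderm genes. It called 1 other claudin, 5 regulators, 0 fibroblast and 0 endothelium and blood genes higher, and 0 desmosome, 2 other filament and 1 trophoblast genes lower. With no filter, more genes were tested and 11 other keratins, 4 other claudins and 3 surface ectoderm genes were called higher and 4 fibroblast genes lower. With a filter of 1 CPM in 3 samples, fewer were tested: 3 other keratins, 0 other claudins and 2 trophoblast genes were called higher, and 1 surface ectoderm and 1 fibroblast gene lower. DESeq2 called 1 other claudin and 0 fibroblast genes higher, and the cause was not tested. Leaving out each replicate in turn gave from 1 to 2 other claudins called higher, with 1 without Tnfaip2-/- replicate 3. With the longest transcript as length, Ocln and Krt19 exchanged ranks 7 and 8 in WT (to 8 and 7), and Cldn4 and Cldn6 ranks 3 and 4 in Tnfaip2-/- samples (to 4 and 3). With unshared windows, an alternative chosen after seeing the data, the type I to type II keratin ratio was 1.13 in WT and 3.94 in Tnfaip2-/- samples.

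Depth limits the genes with few counts in either genotype. Some named genes had a sample at or under the floor of 3 counts. Among the keratins these included Krt5, Krt9, Krt12, Krt14, Krt15, Krt20, Krt23 and Krt79. Others were Tnfaip2, Cldn11, Dsc3, Pkp1, Cdx2, Kdr, Afp, Col3a1, Dcn and Postn. Krt7 stayed above that floor, with 9 counts in its lowest WT sample. A single clone was compared with its parental line at a single time. Whole EBs do not show which cells carry a transcript, and protein, filaments and junctions were not measured. For Krt8, 29.5% of windows are shared with other genes.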
